A study of Mus musculus with 16 samples.

Results

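The genes described here are the transcripts of 7 inhibitors of cyclin-dependent kinases (CDKs), *Cdkn1a*, *Cdkn1b*, *Cdkn1c*, *Cdkn2a*, *Cdkn2b*, *Cdkn2c* and *Cdkn2d*, and of the 3 D cyclins, *Ccnd1*, *Ccnd2* and *Ccnd3*. They were chosen by gene symbol, and all 10 are among the 18990 genes of the deposited table. Bulk RNA was sequenced in 16 libraries made from mouse embryonic fibroblasts (MEFs). The MEFs were wild-type C57BL/6 cells at passage 2, and every group, controls included, carried a doxycycline-inducible OSKM cassette (Oct4, Sox2, Klf4 and c-Myc) and the rtTA transactivator from lentiviruses used at a multiplicity of infection of 1. All cells received doxycycline at 2 µg/mL, LIF, ascorbic acid at 50 µg/mL, an Alk5 inhibitor at 0.25 µM and the GSK3 inhibitor CHIR at 3 µM. They differed in the siRNA, a pool used at 40 nM: a non-targeting siRNA (nt) or siRNAs against *Wdr5* (si*Wdr5*), *Brca1* (si*Brca1*) or *Bard1* (si*Bard1*). Cells were collected at day 3 and at day 6, with 2 libraries from independent experiments in each of the 8 groups. The comparisons ask whether a knockdown changed these regulators of the cell cycle at either day, and how they moved between the days. A group is a mixed culture in which few cells become pluripotent, and in bulk RNA fewer cells of a type and less RNA per cell cannot be told apart.

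D cyclins join CDK4 or CDK6 into kinases that phosphorylate the retinoblastoma protein and its relatives, which releases E2F factors and lets cells enter S phase. The INK4 inhibitors p16Ink4a (*Cdkn2a*), p15Ink4b (*Cdkn2b*), p18Ink4c (*Cdkn2c*) and p19Ink4d (*Cdkn2d*) bind CDK4 and CDK6 and keep D cyclins out. The CIP/KIP inhibitors p21 (*Cdkn1a*), p27 (*Cdkn1b*) and p57 (*Cdkn1c*) act on a wider range of cyclin and CDK complexes, with those of CDK2 foremost. *Cdkn2a* also encodes p19Arf, which restrains MDM2 and so stabilizes p53, of which *Cdkn1a* is a textbook target. In cultured MEFs the Ink4b-Arf-Ink4a locus and p21 are known as brakes on proliferation and on reprogramming. Much of the control of p27 and of the D cyclins is known to act on protein stability, which RNA does not show.

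The libraries hold 11169738 to 26832534 reads (median 14618683.5). The deposited values are log2 CPM, the reads of a gene scaled to a common library total, and the CPM given below are these values without the logarithm. The lowest value of any of the 10 genes rests on 55 reads, in 1 si*Brca1* library at day 3, while 3 reads correspond to 0.115 to 0.260 CPM. At day 3 *Wdr5* was at 131.7 and 130.5 CPM in nt and at 50.6 and 55.3 CPM in si*Wdr5*, *Brca1* was at 82.4 and 78.0 CPM in nt and at 37.5 and 19.4 CPM in si*Brca1*, and *Bard1* was at 30.5 and 29.1 CPM in nt and at 18.0 and 20.8 CPM in si*Bard1*. The 3 transcripts were not lowered by their own siRNA alone: at day 3 *Brca1* was also called lower in si*Wdr5*, *Bard1* in si*Wdr5* and si*Brca1*, and *Wdr5* in si*Brca1* and si*Bard1* (log2 fold changes -0.86, -1.03, -1.38, -0.87 and -0.48). *Bard1* fell less with its own siRNA than with the other knockdowns, by a log2 fold change of -0.62 at day 3 (limma, adjusted p = 0.0422). At day 6 none of the 3 was called against nt in the cells treated with its own siRNA (limma, adjusted p = 0.189 for *Wdr5*, 0.988 for *Brca1* and 0.853 for *Bard1*). All 9 fibroblast markers examined (Col1a1, Col1a2, Col3a1, Thy1, Pdgfra, Pdgfrb, Vim, Twist2 and Postn) were above 3 reads in all 16 libraries. Their summed level at day 3 was 7725 to 8725 CPM in nt, 13654 to 14177 CPM in si*Wdr5*, 11566 to 12705 CPM in si*Brca1* and 9644 to 11224 CPM in si*Bard1*. At day 6 it was 4702 to 4896 CPM in nt, 8999 to 12323 CPM in si*Wdr5*, 6073 to 6309 CPM in si*Brca1* and 7720 to 7749 CPM in si*Bard1*. The 5 pluripotency markers examined were Nanog, Esrrb, Sall4, Zfp42 and Dppa5a. At day 3 their sum was 7.24 to 9.30 CPM in nt and 1.19 to 1.87 CPM in si*Wdr5*. It was 2.74 to 3.54 CPM in si*Brca1* and 3.33 to 3.86 CPM in si*Bard1*. At day 6 the sum was 122 to 134 CPM in nt and 36.5 to 100 CPM in si*Wdr5*. It was then 110 to 382 CPM in si*Brca1* and 127 to 188 CPM in si*Bard1*. Of 4 skeletal muscle markers only Des is listed, at 30.5 to 39.9 CPM in nt, 139 CPM in both si*Wdr5* libraries, 164 to 171 CPM in si*Brca1* and 74.5 to 88.5 CPM in si*Bard1* at day 3. Of 5 leukocyte markers, Ptprc is not listed and the other 4 summed to 6.50 to 22.2 CPM over all libraries, as 4 endothelial markers did to 15.2 to 59.1 CPM. The sum of 6 epithelial markers was 43.4 to 64.2 CPM in nt, 20.7 to 20.8 CPM in si*Wdr5*, at most 34.4 CPM in si*Brca1* and at most 43.7 CPM in si*Bard1* at day 3. At day 6 it was 509.7 to 684 CPM in nt, 328 to 455 CPM in si*Wdr5*, 517 to 541 CPM in si*Brca1* and 356 to 464 CPM in si*Bard1*, above day 3 in every group. The part of these marker levels in the results below was not tested.

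At day 3, *Cdkn2b*, *Ccnd2* and *Ccnd3* were higher in si*Wdr5* and in si*Brca1* than in nt, with *Cdkn1c* also higher and *Cdkn2a* lower in si*Wdr5*, and *Cdkn1a* higher and *Cdkn2c* lower in si*Brca1*. In si*Bard1* *Cdkn2b* was higher and *Cdkn1c* lower. All 3 knockdowns were compared with the same 2 nt libraries. A gene was called at an adjusted p under 0.05 in limma, with adjustment over the 14028 genes tested, and all 10 genes were tested. In si*Wdr5* at day 3, 5 of the 10 were called, 4 higher and 1 lower, where 35% of all genes tested were called. In si*Brca1* at day 3, 5 of the 10 were called, 4 higher and 1 lower, against 47.2% of all genes. In si*Bard1* at day 3, 2 of the 10 were called, 1 higher and 1 lower, against 14.5% of all genes. The share of called members was thus near the share among all genes for si*Brca1* and si*Bard1*, and was not far above it for si*Wdr5*. With a fold change above 2 required as well (a log2 fold change above 1), *Cdkn2b* and *Cdkn2c* were still called in si*Brca1* and no member was called in si*Wdr5* or si*Bard1*, where 13.4%, 7.05% and 2.24% of all genes met that rule. The median log2 fold change of the 10 genes was 0.17, 0.22 and 0.02 for si*Wdr5*, si*Brca1* and si*Bard1*, and that of all genes tested was -0.04, 0.00 and -0.02.

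At day 6 the differences from nt were fewer. In si*Wdr5*, 2 of the 10 genes were called, *Ccnd2* and *Ccnd3*, both higher, against 21.8% of all genes. In si*Brca1* at day 6 none of the 10 genes was called by limma, where 0% of all genes (0 of 14028) were called. At an unadjusted p under 0.05 these were 2 of the 10 (*Ccnd1* and *Ccnd2*) and 1123 of all genes, and limma-voom on the reads recovered from the values called 0 of the 10 and 0 genes. In si*Bard1* at day 6 limma called 0 of the 10 and 11 genes in all, 0.0784%. At an unadjusted p under 0.05 this was 1 of the 10 (*Ccnd1*) and 1908 of all genes. Limma-voom called 0 of the 10 and 7 genes in all.

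**Figure D1:**
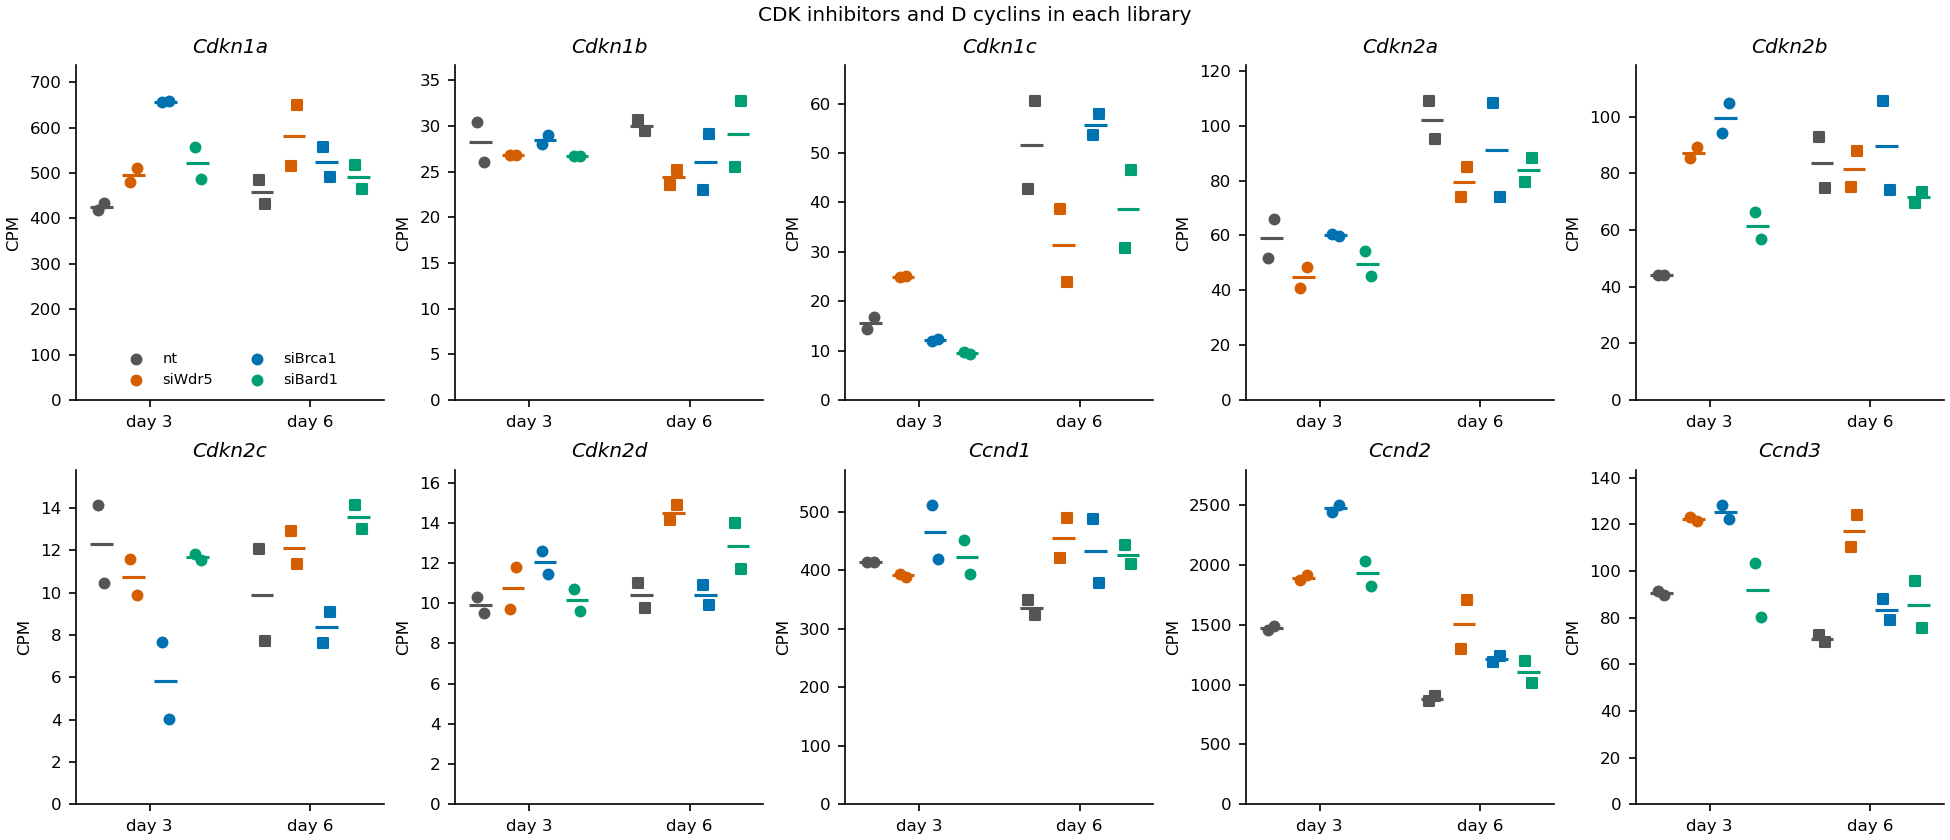
CPM of each of the 10 genes in every library, with day 3 as circles, day 6 as squares, 1 color per siRNA and a line at the mean of the 2 libraries of a group; each panel has its own axis from 0. *Cdkn2b* stands at 44.2 and 44.2 CPM in nt at day 3 and at 85.5 CPM or more in si*Wdr5* and si*Brca1* at that day, and *Cdkn1c* rises above 40 CPM in nt by day 6.

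Among the CIP/KIP inhibitors, *Cdkn1a* (p21) was the most abundant and *Cdkn1c* (p57) the most variable. At day 3 *Cdkn1a* was at 417.6 and 433.3 CPM in nt, at 480.4 and 511.4 CPM in si*Wdr5*, at 656.1 and 658.7 CPM in si*Brca1* and at 558.4 and 486.8 CPM in si*Bard1*. Both libraries of every knockdown lay above both nt libraries, and those of si*Brca1* lay above all others. The log2 fold change against nt was 0.63 ± 0.11 (SE) in si*Brca1* (adjusted p = 0.000363), which is 1.55-fold, and 0.34 with quantile normalization, where it was still called (adjusted p = 0.00357). It was 0.22 ± 0.11 in si*Wdr5* (adjusted p = 0.127) and 0.29 ± 0.11 in si*Bard1* (adjusted p = 0.0817), neither past the threshold. Compared directly, si*Brca1* was above si*Wdr5* by 0.41 ± 0.11 (adjusted p = 0.0213) and above si*Bard1* by 0.33 ± 0.11 (adjusted p = 0.0409). The first of these calls was lost without replicate 1 or 2 of si*Wdr5* or replicate 2 of si*Brca1* (adjusted p = 0.165, 0.0923 and 0.0524), and the second without replicate 2 of si*Brca1* or of si*Bard1* (0.106 and 0.210). With quantile normalization the first was 0.27 (adjusted p = 0.0373) and the second 0.11 and not called (adjusted p = 0.311). At day 6 the 8 libraries ran from 431.8 CPM (nt) to 649.1 CPM (si*Wdr5*), with nt at 484.6 and 431.8 CPM. The libraries of si*Wdr5* (514.7 and 649.1 CPM) and si*Brca1* (557.4 and 492.2 CPM) were above both of nt and those of si*Bard1* overlapped with it, and none was called (log2 fold changes 0.34, 0.20 and 0.10, adjusted p = 0.139, 0.766 and 0.809). In si*Brca1* the transcript fell by 0.33 ± 0.13 on the log2 scale from day 3 to day 6 (adjusted p = 0.0454), a call that was lost without either si*Brca1* library of day 3 or without replicate 2 of day 6 (adjusted p = 0.106 to 0.218), and the direction turned with quantile normalization (0.01, adjusted p = 0.937).

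*Cdkn1c*, an imprinted gene known for restraining growth in the embryo, was the one member called in opposite directions between knockdowns. At day 3 it was at 14.4 and 16.7 CPM in nt, at 24.9 and 25.0 CPM in si*Wdr5*, at 12.0 and 12.3 CPM in si*Brca1* and at 9.60 and 9.39 CPM in si*Bard1*. No library of one group overlapped with another group. Against nt the log2 fold change was 0.69 ± 0.14 in si*Wdr5* (adjusted p = 0.00248) and -0.71 ± 0.14 in si*Bard1* (0.00633), while si*Brca1* stood at -0.35 ± 0.14, not called (adjusted p = 0.0568). Without nt replicate 1 the si*Wdr5* call was lost (adjusted p = 0.0516), and without nt replicate 2 the si*Bard1* call was lost (adjusted p = 0.101). The direct differences did not depend on 1 library: si*Wdr5* was above si*Bard1* by 1.39 ± 0.14 (adjusted p = 0.000105), 2.63-fold, and si*Brca1* was below si*Wdr5* by a log2 fold change of -1.04 ± 0.14 (adjusted p = 0.000441). In GENCODE 30.7% of the exon bases of *Cdkn1c* lie opposite an antisense transcript, Gm44732, and it is not stated whether the counting used strand.

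By day 6 *Cdkn1c* was at 42.8 and 60.5 CPM in nt, at 38.7 and 24.0 CPM in si*Wdr5*, at 53.7 and 57.8 CPM in si*Brca1* and at 30.7 and 46.5 CPM in si*Bard1*. The si*Wdr5* libraries lay below both nt libraries, while the other knockdowns overlapped with nt. From day 3 to day 6 the transcript rose by 1.71 ± 0.22 on the log2 scale in nt (adjusted p = 2.19e-05), 3.28-fold, by 2.20 ± 0.22 under si*Brca1* (1.32e-06) and by 1.99 ± 0.22 under si*Bard1* (9.93e-06). In si*Wdr5* the change was 0.29 ± 0.22 (adjusted p = 0.359), with a 95% interval of -0.17 to 0.75. The effect of si*Wdr5* thus differed between the days by -1.43 ± 0.31 (adjusted p = 0.0294). That call was lost when any library but replicate 1 of si*Wdr5* at day 6 was left out (adjusted p = 0.0524 to 0.111) and kept without that one.

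*Cdkn1b* (p27) changed least. Its 16 libraries ran from 22.9 CPM in si*Brca1* at day 6 to 32.7 CPM in si*Bard1* at day 6, a 1.43-fold range with a median of 26.9 CPM. At day 3 its log2 fold changes were -0.07 ± 0.12 in si*Wdr5* (95% interval -0.34 to 0.19), 0.02 ± 0.12 in si*Brca1* (-0.25 to 0.28) and -0.08 ± 0.12 in si*Bard1* (-0.34 to 0.19). It passed the test in none of the 16 comparisons made.

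Of the INK4 inhibitors, *Cdkn2b* (p15) had the largest log2 fold change from nt at day 3 in each knockdown. It is known as a target of TGF-beta signaling, which the Alk5 inhibitor added to all cultures is meant to block. A part of that signaling in the values below was not tested. At day 3 *Cdkn2b* was at 44.2 and 44.2 CPM in nt, at 85.5 and 89.1 CPM in si*Wdr5*, at 94.1 and 104.8 CPM in si*Brca1* and at 66.3 and 56.8 CPM in si*Bard1*. No knockdown library overlapped with nt, and the si*Bard1* libraries lay between nt and the other knockdowns. The log2 fold change was 0.98 ± 0.11 in si*Wdr5* (adjusted p = 3.41e-05), 1.98-fold, and 1.17 ± 0.11 in si*Brca1* (adjusted p = 6.09e-06), 2.25-fold. In si*Bard1* it was 0.47 ± 0.11 (adjusted p = 0.0138), a call that was lost without either nt library or without replicate 1 of si*Bard1* (adjusted p = 0.118, 0.109 and 0.0873). Compared directly, si*Brca1* was above si*Bard1* by 0.69 ± 0.11 (adjusted p = 0.00420, and 0.0923 without si*Bard1* replicate 2) and si*Wdr5* was above si*Bard1* by 0.51 ± 0.11 (adjusted p = 0.0139, and 0.112 to 0.137 without either si*Wdr5* library or without si*Bard1* replicate 2). The difference between si*Brca1* and si*Wdr5* was 0.19 ± 0.11 (95% interval -0.05 to 0.43, adjusted p = 0.281).

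By day 6 nt had reached the level of the knockdowns. *Cdkn2b* was then at 92.7 and 74.7 CPM in nt, at 75.2 and 87.8 CPM in si*Wdr5*, at 105.5 and 74.0 CPM in si*Brca1* and at 69.6 and 73.4 CPM in si*Bard1*. The nt libraries overlapped with those of si*Wdr5* and si*Brca1* and lay just above those of si*Bard1*. The log2 fold changes against nt were -0.03 ± 0.17, 0.09 ± 0.17 and -0.22 ± 0.17 (adjusted p = 0.906, 0.924 and 0.614). From day 3 to day 6 the transcript rose by 0.91 ± 0.15 on the log2 scale in nt (adjusted p = 0.000197), while si*Wdr5*, si*Brca1* and si*Bard1* changed by -0.10 ± 0.15, -0.17 ± 0.15 and 0.22 ± 0.15, none called. The effect of si*Brca1* differed between the days by -1.08 ± 0.22 (adjusted p = 0.00467), and it did so without any 1 library (adjusted p = 0.00185 to 0.0276). That of si*Wdr5* differed by -1.02 ± 0.22 (adjusted p = 0.0293), which was lost when any library but replicate 2 of nt at day 6 was left out (adjusted p = 0.0649 to 0.130). For si*Bard1* the difference was -0.69 ± 0.22 (adjusted p = 0.107).

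*Cdkn2a* gives 2 proteins from 1 gene, and the deposited value is a single number for both. In GENCODE vM21 the p16Ink4a transcript (Cdkn2a-201) starts from exon 1 alpha at chr4:89281986-89282192 and the p19Arf transcript (Cdkn2a-202) from exon 1 beta at chr4:89294334-89294653, both on the minus strand of mm10. They are joined to the same exon 2 at chr4:89276645-89276985, and 575 of the 852 and 895 exon bases of the transcripts are shared. The junctions are shown because they are where the transcripts part, with 20 bases of exon 1 in lower case and the first 20 bases of the shared exon 2 in capitals.
p16Ink4a: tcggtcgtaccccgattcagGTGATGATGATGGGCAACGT
p19Arf: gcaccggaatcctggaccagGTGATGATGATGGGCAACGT
From the junction on the letters are the same, but exon 2 is read in another frame: exon 1 alpha ends with 126 coding bases and leaves 0 bases of an open codon, and exon 1 beta ends with 190 and leaves 1. Reads from exon 2 or beyond can thus not be assigned to either product from a count per gene.

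At day 3 *Cdkn2a* was at 51.9 and 66.0 CPM in nt, at 40.9 and 48.4 CPM in si*Wdr5*, at 60.4 and 59.8 CPM in si*Brca1* and at 54.3 and 45.2 CPM in si*Bard1*. Both si*Wdr5* libraries lay below nt, and the other knockdowns overlapped with it. In si*Wdr5* the log2 fold change was -0.40 ± 0.14 (limma, adjusted p = 0.0401). The call was lost without a filter, with all 16 libraries, without a trend or when centred (limma, adjusted p = 0.0631 to 0.114). This call was lost without nt replicate 2, si*Wdr5* replicate 1 or si*Wdr5* replicate 2 (adjusted p = 0.378, 0.287 and 0.0580), and without the first of these the value was -0.22. The log2 fold change was 0.04 ± 0.14 in si*Brca1* (95% interval -0.26 to 0.34) and -0.24 ± 0.14 in si*Bard1* (-0.54 to 0.06). By direct comparison si*Brca1* was above si*Wdr5* by 0.43 ± 0.14 (adjusted p = 0.0492), lost without either si*Wdr5* library or without si*Brca1* replicate 2 (adjusted p = 0.326, 0.0968 and 0.0575). In contrast to *Cdkn2b*, *Cdkn2a* was called higher at day 6 than at day 3 under every siRNA. At day 6 it was at 109.0 and 95.2 CPM in nt, at 74.1 and 84.8 CPM in si*Wdr5*, at 108.4 and 74.1 CPM in si*Brca1* and at 79.4 and 88.1 CPM in si*Bard1*, and every day 6 library was above every day 3 library. The rise on the log2 scale was 0.80 ± 0.17 in nt (adjusted p = 0.00117), 0.83 ± 0.17 under si*Wdr5* (adjusted p = 0.00226), 0.58 ± 0.17 under si*Brca1* (0.00975, and without si*Brca1* replicate 1 of day 6 a value of 0.30 with an adjusted p of 0.160) and 0.76 ± 0.17 under si*Bard1* (0.00278).

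*Cdkn2c* (p18), a gene with E2F-linked expression in cycling cells, was lower in si*Brca1*. At day 3 it was at 14.1 and 10.5 CPM in nt, at 11.6 and 9.89 CPM in si*Wdr5*, at 7.66 and 4.01 CPM in si*Brca1* and at 11.8 and 11.5 CPM in si*Bard1*. The si*Brca1* libraries were the lowest and had the largest ratio between replicates of that day. The log2 fold change against nt was -1.13 ± 0.25 in si*Brca1* (adjusted p = 0.00231), a level 2.19-fold lower, and without 1 of the compared libraries it stayed called (adjusted p at most 0.0347) and was -0.67 without si*Brca1* replicate 2. It was -0.18 ± 0.25 in si*Wdr5* (95% interval -0.73 to 0.36) and -0.06 ± 0.25 in si*Bard1* (-0.60 to 0.49). Directly, si*Brca1* was below si*Wdr5* by a log2 fold change of -0.95 ± 0.25 (adjusted p = 0.0219, and 0.101 to 0.188 without either si*Wdr5* library or without si*Brca1* replicate 2). It was below si*Bard1* by a log2 fold change of -1.08 ± 0.25 (adjusted p = 0.0109, and 0.0626 and 0.115 without si*Bard1* replicate 1 or 2). Without si*Brca1* replicate 2 these differences were -0.48 and -0.61. At day 6 *Cdkn2c* was at 12.1 and 7.71 CPM in nt and at 7.59 and 9.10 CPM in si*Brca1*, which overlapped, and no comparison of the days was called.

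*Cdkn2d* (p19Ink4d) ranged from 9.49 CPM in nt at day 3 to 14.9 CPM in si*Wdr5* at day 6 and was called in none of the 16 comparisons. Its largest difference from nt was in si*Wdr5* at day 6, with 14.1 and 14.9 CPM against 11.0 and 9.78 CPM (log2 fold change 0.48 ± 0.17, adjusted p = 0.0632).

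Upstream sequences were compared for the 3 inhibitors that changed in si*Brca1* at day 3, since they did not change in 1 direction. RefSeq promoter entries (build GRCm38.p6) matched 7 of the 10 genes with 11 start sites, and *Cdkn1c*, *Ccnd1* and *Ccnd2* had none. Shown are the 120 bases before a start of *Cdkn2b* (chr4:89311033-89311152, minus strand), *Cdkn1a* (chr17:29093649-29093768, plus strand) and *Cdkn2c* (chr4:109666757-109666876, minus strand), 5′ to 3′, with GC boxes in capitals.
Cdkn2b: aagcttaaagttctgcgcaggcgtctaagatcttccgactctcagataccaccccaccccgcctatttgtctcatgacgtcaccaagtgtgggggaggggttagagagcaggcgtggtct
Cdkn1a: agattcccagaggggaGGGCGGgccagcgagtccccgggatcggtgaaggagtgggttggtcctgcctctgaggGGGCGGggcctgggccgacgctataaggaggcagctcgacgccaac
Cdkn2c: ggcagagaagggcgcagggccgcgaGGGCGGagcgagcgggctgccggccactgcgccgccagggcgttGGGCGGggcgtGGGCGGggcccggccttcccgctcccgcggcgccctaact
The GC box, GGGCGG on either strand, is a short motif bound by SP1 and related factors. In the 250 bases before the start it occurs 3 times at this start of *Cdkn2c*, 2 times at this start of *Cdkn1a* and not in *Cdkn2b*, and 32.7% of 32851 windows of that length hold it. The other start of *Cdkn1a* and the other start of *Cdkn2c* hold 0 GC boxes, so the contrast with *Cdkn2b* depends on the start chosen. At the starts shown the GC box occurs in *Cdkn1a*, higher in si*Brca1*, and *Cdkn2c*, lower there, so it does not follow direction. A part of the motif in these changes was not tested. An E2F motif searched as TTTNNCGC on either strand, found in 4.28% of windows, matched none of the 3 starts shown and both starts of *Cdkn2a*. These are matches of letters only.

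Of the D cyclins, *Ccnd2* and *Ccnd3* were called higher in si*Wdr5* at both days and *Ccnd1* at neither. *Ccnd2* was the most abundant D cyclin transcript in all 16 libraries. At day 3 it was at 1461 and 1493 CPM in nt, at 1874 and 1919 CPM in si*Wdr5*, at 2448 and 2500.0 CPM in si*Brca1* and at 2036 and 1827 CPM in si*Bard1*. Every knockdown library was above nt, and those of si*Brca1* were the highest. In si*Brca1* the log2 fold change was 0.74 ± 0.13 (adjusted p = 0.000349), 1.67-fold, and with quantile normalization it was 0.31 and still called (adjusted p = 0.0198). In si*Wdr5* it was 0.36 ± 0.13 (adjusted p = 0.0407), a call lost without each of the 4 compared libraries in turn (adjusted p = 0.141 to 0.220) and with quantile normalization (0.06, adjusted p = 0.645). In si*Bard1* it was 0.38 ± 0.13 and not called (adjusted p = 0.0569).

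At day 6 *Ccnd2* was lower in every group, at 859.6 and 905.5 CPM in nt, at 1298 and 1710.0 CPM in si*Wdr5*, at 1190 and 1238 CPM in si*Brca1* and at 1198 and 1015 CPM in si*Bard1*. All knockdown libraries were again above nt, as were their summed fibroblast markers given above. Against nt the log2 fold change was 0.76 ± 0.18 in si*Wdr5* (adjusted p = 0.0172), lost without either nt library or without si*Wdr5* replicate 2 (adjusted p = 0.110, 0.0944 and 0.149), and 0.46 ± 0.18 in si*Brca1* and 0.32 ± 0.18 in si*Bard1* (adjusted p = 0.560 and 0.455). From day 3 to day 6 *Ccnd2* fell by 0.74 ± 0.15 on the log2 scale in nt (adjusted p = 0.000722), by 1.03 ± 0.15 under si*Brca1* (3.72e-05) and by 0.81 ± 0.15 under si*Bard1* (0.000646). In si*Wdr5* the change was -0.35 ± 0.15 and not called (adjusted p = 0.0935), and the difference between that change and the one in nt, 0.40 ± 0.21, was not called either (adjusted p = 0.260).

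*Ccnd3* at day 3 was at 91.4 and 89.8 CPM in nt, at 123.3 and 121.4 CPM in si*Wdr5*, at 128.1 and 122.4 CPM in si*Brca1* and at 103.4 and 80.4 CPM in si*Bard1*. The si*Wdr5* and si*Brca1* libraries were above all others, and those of si*Bard1* lay on both sides of nt. The log2 fold change was 0.47 ± 0.12 in si*Brca1* (adjusted p = 0.00512) and 0.01 ± 0.12 in si*Bard1* (95% interval -0.24 to 0.26). In si*Wdr5* it was 0.43 ± 0.12 (adjusted p = 0.0118, and 0.0662 to 0.0823 without each of the 4 compared libraries). Both were above si*Bard1*, si*Brca1* by 0.46 ± 0.12 (adjusted p = 0.0160, and 0.157 without si*Bard1* replicate 2) and si*Wdr5* by 0.42 ± 0.12 (adjusted p = 0.0403, and 0.169 to 0.299 without either si*Wdr5* library or si*Bard1* replicate 2). Without si*Bard1* replicate 2 these differences were 0.28 and 0.24. At day 6 it was at 72.5 and 69.3 CPM in nt, at 110.4 and 124.2 CPM in si*Wdr5*, at 87.8 and 78.8 CPM in si*Brca1* and at 95.6 and 75.5 CPM in si*Bard1*. The si*Wdr5* libraries stood above all others, by 0.72 ± 0.14 over nt on the log2 scale (adjusted p = 0.00816), a call lost without nt replicate 2 or si*Wdr5* replicate 2 (adjusted p = 0.0683 and 0.0931). From day 3 to day 6 it fell by 0.59 ± 0.13 in si*Brca1* (adjusted p = 0.00160, with -0.34 and 0.0324 under quantile normalization) and by 0.35 ± 0.13 in nt (adjusted p = 0.0375). The fall in nt was lost without each of the 4 libraries (adjusted p = 0.0893 to 0.146) and with quantile normalization (-0.12, adjusted p = 0.445). Of the exon bases of *Ccnd3*, 4.11% lie opposite Bysl.

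*Ccnd1*, the D cyclin best known as a target of growth factor signaling, was called in no comparison. Its day 3 log2 fold changes were -0.08 ± 0.12 in si*Wdr5*, 0.16 ± 0.12 in si*Brca1* and 0.03 ± 0.12 in si*Bard1*. At day 6 it was at 349.2 and 323.6 CPM in nt, at 420.6 and 489.5 CPM in si*Wdr5*, at 488.7 and 378.8 CPM in si*Brca1* and at 442.9 and 411.4 CPM in si*Bard1*. All 6 knockdown libraries were above nt, with log2 fold changes of 0.43 ± 0.15, 0.36 ± 0.15 and 0.34 ± 0.15, none called (adjusted p = 0.0665, 0.603 and 0.358). Of its exon bases 23.4% lie opposite LTO1, the name of that gene in the annotation used.

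**Figure D2:**
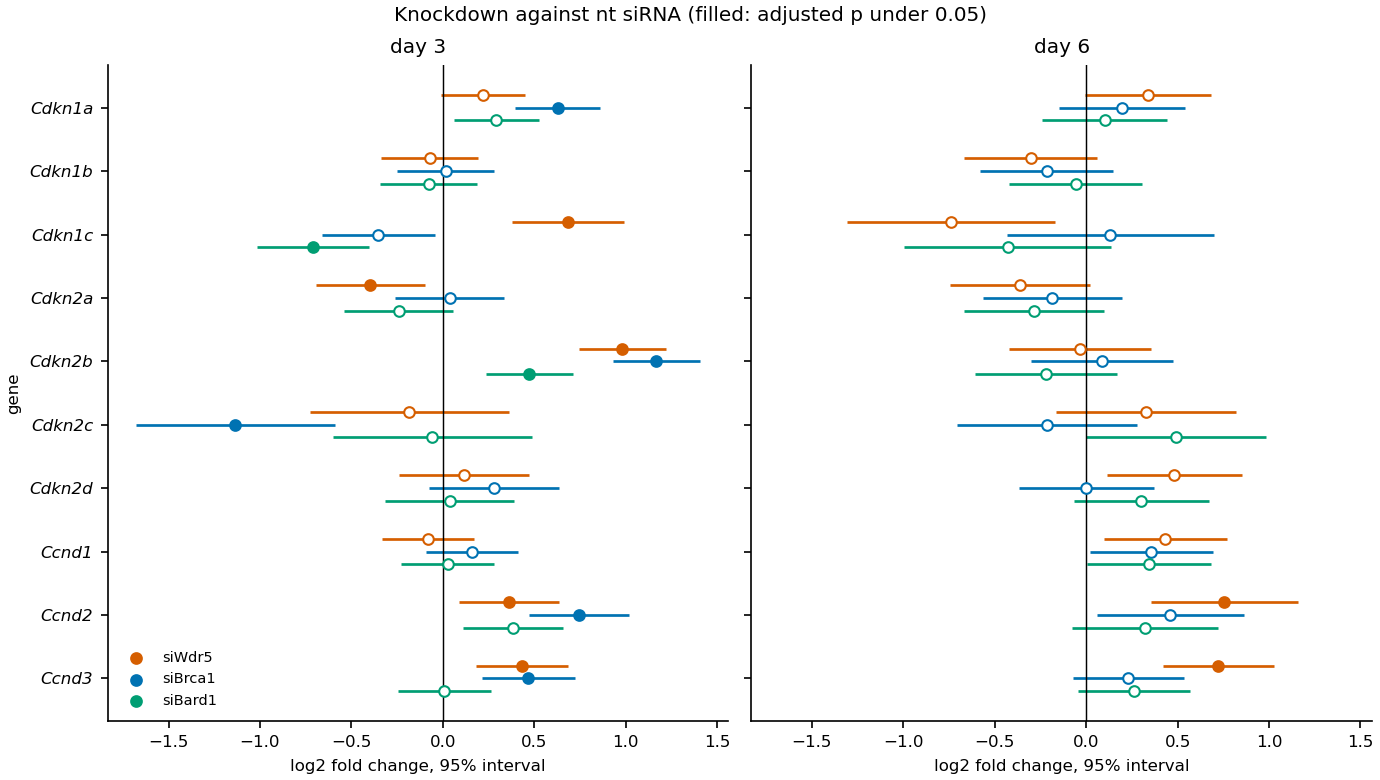
Log2 fold change of each gene in each knockdown against nt at day 3 (left) and day 6 (right), with 95% intervals from limma; filled points were called at an adjusted p under 0.05 and open points were not. At day 3 *Cdkn2b* is filled for all 3 knockdowns and *Cdkn1c* lies at 0.69 in si*Wdr5* and at -0.71 in si*Bard1*; at day 6 only *Ccnd2* and *Ccnd3* in si*Wdr5* are filled.

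Levels can be compared between genes only per length, here as CPM per kb of exon. In nt at day 3 the order was *Ccnd2* (157 ± 2.4 (SD, n = 2)), *Cdkn1a* (120 ± 3.1), *Ccnd1* (88.0 ± 0.016), *Cdkn2a* (50.2 ± 8.5), *Cdkn2b* (31.7 ± 0.017), *Ccnd3* (10.3 ± 0.13), *Cdkn1c* (7.56 ± 0.81), *Cdkn2d* (6.20 ± 0.36), *Cdkn1b* (6.18 ± 0.68) and *Cdkn2c* (4.52 ± 0.96). *Cdkn2d* and *Cdkn1b* overlapped, and the other neighbours in this order did not. In nt at day 6 *Cdkn1a* came first (129 ± 11), before *Ccnd2* (93.8 ± 3.5) and *Cdkn2a* (87.0 ± 8.3), which overlapped, and *Cdkn1c* had passed *Ccnd3* (25.3 ± 6.2 against 8.07 ± 0.26). In si*Wdr5*, si*Brca1* and si*Bard1* at day 3 *Cdkn2b* stood above *Cdkn2a*, overlapping with it only in si*Bard1*. The order rests on the exon length used: with the longest coding transcript in place of all exon bases, an alternative added after seeing the data, *Ccnd3* (42.8 ± 0.53 at day 3) came before *Cdkn2b* (31.7 ± 0.017). By that length *Cdkn1c* had not passed *Ccnd3* in nt at day 6 (27.1 ± 6.6 against 33.5 ± 1.1), and in si*Bard1* at day 3 *Cdkn2b* stood below *Cdkn2a* (44.2 ± 4.9 against 55.4 ± 7.2).

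*Ccnd2* made up 61.2% to 72.1% of the D cyclin transcripts per length at day 3 and 52.6% to 60.6% at day 6, over the 8 libraries of each day. The share of *Ccnd1* was 24.1% to 34.7% and then 34.7% to 43.2%, and that of *Ccnd3* 3.19% to 4.73% and then 4.06% to 5.24%. With the longest coding transcript the share of *Ccnd3* was 8.79% to 12.7% and then 11.1% to 14.1%, and that of *Ccnd2* was 60.0% to 69.9% and then 51.6% to 58.8%. The sum of the 3 ran from 254 to 383 CPM per kb at day 3 and from 173 to 300 CPM per kb at day 6.

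**Figure D3:**
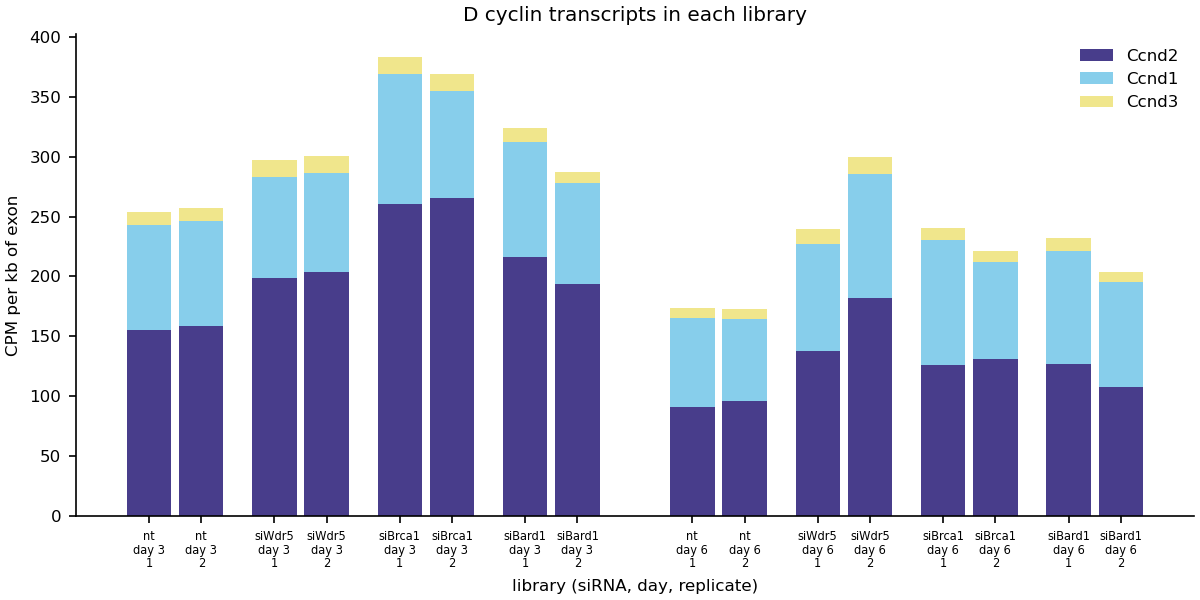
Stacked CPM per kb of exon of *Ccnd2*, *Ccnd1* and *Ccnd3* in each of the 16 libraries, day 3 on the left and day 6 on the right. *Ccnd2* is the largest part of every bar, the si*Brca1* bars are the tallest at day 3 and the nt bars are the shortest at each day.

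Between the days, 5 of the 10 genes were called in nt (3 higher, 2 lower), where 46.2% of all genes were called. In si*Wdr5* it was 1 of 10 (*Cdkn2a*) against 25.3%, in si*Brca1* 5 of 10 (2 higher, 3 lower) against 49.4%, and in si*Bard1* 3 of 10 (2 higher, 1 lower) against 34.6%. The share in si*Wdr5* was below that of all genes and the others were near it. The uncalled members changed by -0.33 (*Cdkn2c*) to 0.10 (*Cdkn1a*) on the log2 scale in nt, by -0.35 (*Ccnd2*) to 0.44 (*Cdkn2d*) in si*Wdr5*, by -0.21 (*Cdkn2d*) to 0.59 (*Cdkn2c*) in si*Brca1* and by -0.10 (*Ccnd3*) to 0.34 (*Cdkn2d*) in si*Bard1*. The effect of a knockdown differed between the days for 2 of 10 in si*Wdr5* (*Cdkn1c* and *Cdkn2b*) against 4.43% of all genes, for 1 of 10 in si*Brca1* (*Cdkn2b*) against 20.5%, and for 0 of 10 in si*Bard1* against 0.0499%. For si*Bard1* 1 of the 10 (*Cdkn2b*) and 2694 of all 14028 genes had an unadjusted p under 0.05 in limma. Limma-voom called 0 of the 10 and 7 genes in all.

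**Figure D4:**
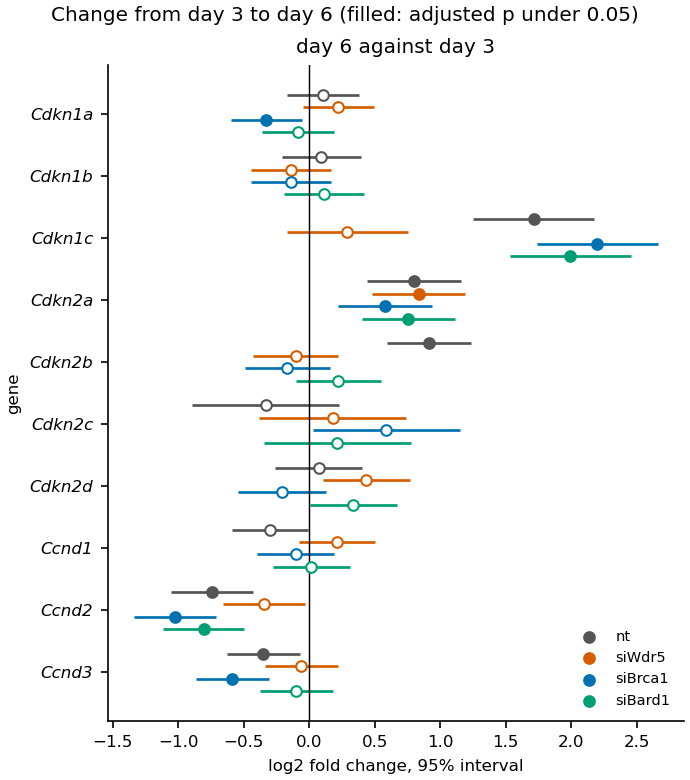
Log2 fold change from day 3 to day 6 of each gene in nt and each knockdown, with 95% intervals from limma; filled points were called at an adjusted p under 0.05. *Cdkn2a* is filled under every siRNA, and *Cdkn1c* is filled for nt, si*Brca1* and si*Bard1* but stands at 0.29 for si*Wdr5*.

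In the direct comparisons at day 3, 4 of the 10 genes differed between si*Brca1* and si*Wdr5* (*Cdkn1a* and *Cdkn2a* higher in si*Brca1*, *Cdkn1c* and *Cdkn2c* lower), against 15.7% of all genes. Between si*Brca1* and si*Bard1* it was 4 of 10 (*Cdkn1a*, *Cdkn2b* and *Ccnd3* higher, *Cdkn2c* lower) against 21.4%, and between si*Wdr5* and si*Bard1* 3 of 10 (*Cdkn1c*, *Cdkn2b* and *Ccnd3*, all higher in si*Wdr5*) against 8.63%. Over the 16 comparisons the 10 genes gave 42 calls. Of these, 20 held in every alternative other than the requirement of a fold change above 2, and 22 were lost in at least 1. The 20 are, against nt at day 3, *Cdkn2b* in si*Wdr5* and *Cdkn1a*, *Cdkn2b*, *Cdkn2c*, *Ccnd2* and *Ccnd3* in si*Brca1*. Between the days they are *Cdkn1c*, *Cdkn2a*, *Cdkn2b* and *Ccnd2* in nt, *Cdkn2a* in si*Wdr5*, *Cdkn1c*, *Ccnd2* and *Ccnd3* in si*Brca1* and *Cdkn1c*, *Cdkn2a* and *Ccnd2* in si*Bard1*. The others are the change of the si*Brca1* effect for *Cdkn2b*, and *Cdkn1c* between si*Wdr5* and both other knockdowns. Every call that was lost in at least 1 alternative was among those lost when a single library was left out. The fold rule ended 30 calls, moderation without a trend on mean expression 16, no filter on low values 9, and centring on the median gene 3.

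The other genes of the pathway were examined in lists, whose counts at day 3 are read against the 35%, 47.2% and 14.5% of all genes called in si*Wdr5*, si*Brca1* and si*Bard1*. Of 16 CDKs and other cyclins, 10 passed the test in si*Wdr5*, 13 passed in si*Brca1* and si*Bard1* had 2, each of them lower, with median log2 fold changes of -0.55, -0.68 and -0.29. The shares in si*Wdr5* and si*Brca1* were above those of all genes and the share in si*Bard1* (12.5%) was not, with 4 of 16 called under quantile normalization. Ccne2, a cyclin of CDK2 at the entry to S phase, stood at -1.12 ± 0.24 in si*Wdr5* (adjusted p = 0.00319) and at -1.64 ± 0.24 in si*Brca1* (adjusted p = 0.000129). Ccnb1, the mitotic partner of CDK1, was at -0.92 ± 0.23 in si*Wdr5*, and Ccna2, the S phase cyclin, at -1.54 ± 0.25 in si*Brca1*. Of 12 proliferation markers 10 passed in si*Wdr5*, 12 passed in si*Brca1* and si*Bard1* had 1, each lower, with medians of -0.75, -1.34 and -0.41, where the median of all genes was within 0.05 of 0. Here too the share in si*Bard1* (8.33%) was below that of all genes. Ccna2 and Ccnb1 belong to both this list and that of the CDKs and other cyclins, so the lists are not separate. In si*Brca1* the lower level of *Cdkn2c* and the higher levels of *Cdkn1a*, *Cdkn2b*, *Ccnd2* and *Ccnd3* stood beside lower levels of all 12 proliferation markers, whose part in these results was not tested.

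Of 13 pocket proteins and E2F factors, 7 passed in si*Wdr5* (all lower), 9 in si*Brca1* (2 higher, 7 lower) and 2 in si*Bard1* (both lower), the last near the share of all genes. The largest falls were E2f2 in si*Wdr5* (-1.17 ± 0.25) and E2f8 in si*Brca1* (-1.52 ± 0.31), and Rbl2, the p130 pocket protein, was higher in si*Brca1* (0.36 ± 0.13, adjusted p = 0.0343). Of 18 genes of p53 and its targets, 7 passed in si*Wdr5* (6 higher), 9 in si*Brca1* (7 higher) and 3 in si*Bard1* (all higher). These shares (38.9%, 50% and 16.7%) were near those of all genes, and the 3 of si*Bard1* became 5 when centred and 7 (6 higher) with quantile normalization. Fas, a death receptor gene, was higher in all 3 knockdowns (0.78 ± 0.14, 0.93 ± 0.14 and 0.89 ± 0.14). The other largest rises were Gadd45a in si*Wdr5* (0.81 ± 0.24) and si*Brca1* (0.90 ± 0.24) and Mdm2 in si*Bard1* (0.55 ± 0.11). Mdm4 was lower in si*Wdr5* (-0.71 ± 0.13) and si*Brca1* (-0.45 ± 0.13), and Trp53 itself in si*Brca1* (-0.46 ± 0.13). The list's median was 0.14, 0.09 and -0.07, and that of si*Brca1* turned to -0.07 with quantile normalization.

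Among 17 known regulators of the Ink4b-Arf-Ink4a locus, 8 passed in si*Wdr5* (5 higher, 3 lower), 11 in si*Brca1* (6 higher, 5 lower) and 3 in si*Bard1* (all higher), or 47.1%, 64.7% and 17.6%. Tbx3, a T-box repressor of the locus, was higher in all 3 (1.06 ± 0.13, 0.82 ± 0.13 and 0.55 ± 0.13). The largest rise in si*Brca1* was that of Tbx2 (0.83 ± 0.17). The largest falls were of Polycomb genes, Cbx7 (-1.22 ± 0.24) and Suz12 (-0.55 ± 0.14) in si*Wdr5* and Ezh2 (-0.80 ± 0.13) and Suz12 (-0.69 ± 0.14) in si*Brca1*. Of 14 genes for the turnover of p21, p27 and D cyclin proteins, 6 passed in si*Wdr5* (1 higher, 5 lower), 9 in si*Brca1* (2 higher, 7 lower) and 2 in si*Bard1* (both lower), or 42.9%, 64.3% and 14.3%. With quantile normalization 0 were higher in si*Wdr5* and in si*Brca1*. Dtl, the substrate-binding subunit of the CRL4 ligase that degrades p21, and Skp2, the F-box protein for p27, were the largest falls in si*Wdr5* (-0.91 ± 0.20 and -0.79 ± 0.18) and in si*Brca1* (-1.42 ± 0.20 and -1.05 ± 0.18). From day 3 to day 6 in nt, 10 of 12 proliferation markers, 8 of 13 pocket and E2F genes and 7 of 14 turnover genes were called lower, where 46.2% of all genes were called and 3807 of the 14028 were lower. Rb1 fell by 1.24 ± 0.15 and Cdk6 by 1.43 ± 0.11 on the log2 scale. At day 6 si*Wdr5* had 2 of 12 proliferation markers called, both higher (Mki67 and Mcm4), a share below the 21.8% of all genes. When centred or with quantile normalization neither was called and Pcna, named after its values were seen, was called lower (-0.45 and -0.59).

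The genes whose log2 CPM followed a member most closely were taken as those with the highest Pearson r over the 16 libraries. These values span both days and all siRNAs and are a description. They were Mfn2 (r = 0.988), Crim1 (0.985) and Lima1 (0.985) for *Ccnd2*, Dact3 (0.972) and Tsc22d1 (0.944) for *Cdkn2b*, Map7d1 (0.970) for *Ccnd3*, Pmm1 (0.971) and Rps14 (0.966) for *Cdkn2a*, Clec14a (0.954) for *Cdkn1c* and Chst14 (0.953) for *Cdkn1a*. For *Cdkn2c* they were Rfc3 (0.878) and Tk1 (0.864), for *Cdkn2d* Slc39a1 (0.909), for *Ccnd1* Fam110a (0.871) and for *Cdkn1b* Tigd2 (0.820).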

How the data were processed

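RNA of mouse embryonic fibroblasts was sequenced in 16 libraries, 2 in each of 8 groups. The authors aligned paired reads of 43 bases from ribosome-depleted total RNA to mm10 with STAR 2.5.2b, removed genes with low counts and deposited log2 CPM made with edgeR 3.20.9. The read counter, its annotation and the use of strand are not given in the sources used here. Whole reads could be recovered from the deposited log2 values (largest distance from a whole read 3.80e-07), which gave library sizes and a limma-voom alternative.

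The 14028 of 18990 genes whose mean log2 CPM was 0 or more were tested with limma 3.58.1 in R 4.3.3 (eBayes with a trend, Benjamini-Hochberg over all of them). Knockdowns were compared within the 8 libraries of a day, and days and interactions within all 16. Only the fit of si*Brca1* against nt at day 3 was run on simulated data. The spread between simulated libraries was set by hand, so that run does not give the error rate in these data. Errors of log2 fold changes are SE. The SE and p-values of a gene rest on a spread pooled over all groups in the fit, with 2 libraries per group, and moderated across genes. They do not reflect the spread of the compared groups alone. Replicate numbers are not shown to pair samples. Named genes were the 10 members, the 3 targets, and from each pathway list at most the 2 largest called rises and falls. Members and lists were chosen with earlier results of these data known. Exon lengths came from GENCODE vM21. Alternatives changed the filter, samples fitted, trend, scaling, pseudocount (0.1 or 1 CPM), fold rule, replicate block and libraries. Exon length by the longest coding transcript and the lists under 2 scalings were added after seeing the data.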

Additional observations from a re-analysis of the deposited data

Results flagged for a closer look

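Tests of a difference between knockdowns or between days passed the threshold for 14 values. Between the days, the effect on *Cdkn2b* changed by -1.02 in si*Wdr5* and -1.08 in si*Brca1*, and that on *Cdkn1c* by -1.43 in si*Wdr5* (log2 scale). At day 3, si*Brca1* differed from si*Wdr5* by 0.41 in *Cdkn1a*, 0.43 in *Cdkn2a*, -1.04 in *Cdkn1c* and -0.95 in *Cdkn2c*. It differed from si*Bard1* by 0.33 in *Cdkn1a*, 0.69 in *Cdkn2b*, 0.46 in *Ccnd3* and -1.08 in *Cdkn2c*. si*Wdr5* differed from si*Bard1* by 1.39 in *Cdkn1c*, 0.51 in *Cdkn2b* and 0.42 in *Ccnd3*. Groups of 2 libraries were not tested for outlying samples.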

How the results depend on the processing

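The number of the 10 genes called moved by over 1.5 times as follows, and the cause was not tested. In si*Wdr5* at day 3 it was 5, and 3 without a filter, with all 16 libraries or without a trend, 0 with the fold rule and 2 to 2 without 1 library. In si*Brca1* at day 3 it was 5, and 2 with the fold rule. In si*Bard1* at day 3 it was 2, and 1 with all 16 libraries or without a trend, 4 when centred on the median gene, 0 with the fold rule and 0 to 2 without 1 library. In si*Wdr5* at day 6 it was 2, and 5 with only the compared or with all 16 libraries, 0 with the fold rule and 0 to 3 without 1 library. From day 3 to day 6 the fold rule left 1 of 5 in nt, 0 of 1 in si*Wdr5*, 2 of 5 in si*Brca1* and 1 of 3 in si*Bard1*. For si*Wdr5* this count was 2 with the stricter filter (mean log2 CPM of at least 2), only the compared libraries, no trend, centring, quantile normalization or limma-voom, and 1 to 2 without 1 library. The change of the si*Wdr5* effect between days was called for 2 genes, for 0 without a trend and for 0 to 1 without 1 library. That of si*Brca1* was called for 1, for 2 when centred and for 1 to 2 without 1 library, and that of si*Bard1* for 0, and for 1 with only the compared libraries. Between si*Brca1* and si*Wdr5* 4 became 2 without a filter or with only the compared libraries, 1 without a trend or with the fold rule, and 1 to 4 without 1 library. Between si*Brca1* and si*Bard1* 4 became 1 without a filter, 2 with only the compared libraries, 0 without a trend, 1 with the fold rule and 0 to 4 without 1 library. Between si*Wdr5* and si*Bard1* 3 became 1 with all 16 libraries, without a trend or with the fold rule, and 1 to 3 without 1 library.

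Replicate numbers were not shown to pair the samples: same-numbered deviations correlated with r of -0.09 to 0.07 at day 3, -0.07 to 0.26 at day 6 and 0.01 to 0.14 across days. With the replicate block the calls of *Ccnd2* in si*Wdr5* at day 3 (adjusted p = 0.0685) and of *Cdkn1a* between si*Brca1* and si*Bard1* (adjusted p = 0.0522) were lost, and the counts became 2 for the si*Wdr5* change between days and 2 for the change of the si*Brca1* effect.

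One called value turned its sign, *Cdkn1a* from day 3 to day 6 in si*Brca1* (0.0098 with quantile normalization). The others that turned were 45 of the 118 values that were not called. With quantile normalization they were, against nt at day 3, *Cdkn2a* (-0.010) and *Ccnd1* (-0.13) in si*Brca1* and *Ccnd1* (-0.021) in si*Bard1*. Against nt at day 6 they were *Cdkn2b* (-0.0029) in si*Brca1*, *Cdkn1a* (-0.0088) in si*Bard1*. Between the days they were *Cdkn2d* (-0.078) in nt, *Cdkn2c* (-0.0093) and *Ccnd3* (0.064) in si*Wdr5*, *Cdkn2b* (0.076) and *Ccnd1* (0.27) in si*Brca1*, *Ccnd3* (0.012) in si*Bard1*. For the change of the effect between days they were *Cdkn2a* (-0.18) in si*Wdr5*, *Ccnd2* (0.059) in si*Brca1*, *Cdkn1b* (-0.10) in si*Bard1*. Between knockdowns at day 3 they were *Ccnd1* (-0.11) in si*Brca1* over si*Bard1*. With centring they were, against nt at day 6, *Cdkn2d* (-0.026) in si*Brca1*. Between the days they were *Ccnd1* (-0.030) in si*Bard1*. For the change of the effect between days they were *Cdkn1a* (-0.018) and *Cdkn2a* (-0.10) in si*Wdr5*, *Cdkn1b* (-0.074) in si*Bard1*. Between knockdowns at day 3 they were *Ccnd3* (-0.0058) in si*Brca1* over si*Wdr5*, *Ccnd2* (0.019) in si*Wdr5* over si*Bard1*. With limma-voom they were, against nt at day 6, *Cdkn2d* (-0.0052) in si*Brca1*. Without 1 library the ranges were, against nt at day 3, *Cdkn1b* (-0.18 to 0.042), *Cdkn2c* (-0.40 to 0.033) and *Cdkn2d* (-0.025 to 0.26) in si*Wdr5*, *Cdkn1b* (-0.097 to 0.13) and *Cdkn2a* (-0.14 to 0.21) in si*Brca1*, *Cdkn1b* (-0.19 to 0.035), *Cdkn2c* (-0.27 to 0.16), *Cdkn2d* (-0.043 to 0.12), *Ccnd1* (-0.073 to 0.13) and *Ccnd3* (-0.17 to 0.19) in si*Bard1*. Against nt at day 6 the ranges were *Cdkn2b* (-0.19 to 0.12) in si*Wdr5*, *Cdkn1c* (-0.12 to 0.38), *Cdkn2a* (-0.46 to 0.089), *Cdkn2b* (-0.17 to 0.34), *Cdkn2c* (-0.54 to 0.11) and *Cdkn2d* (-0.084 to 0.087) in si*Brca1*, *Cdkn1b* (-0.24 to 0.12) in si*Bard1*. Between the days the ranges were *Cdkn1b* (-0.021 to 0.20) and *Cdkn2d* (-0.015 to 0.16) in nt, *Cdkn1c* (-0.059 to 0.63), *Cdkn2b* (-0.22 to 0.0082) and *Ccnd3* (-0.15 to 0.021) in si*Wdr5*, *Cdkn1b* (-0.31 to 0.032), *Cdkn2b* (-0.42 to 0.087) and *Ccnd1* (-0.29 to 0.078) in si*Brca1*, *Cdkn1a* (-0.19 to 0.012), *Cdkn1b* (-0.069 to 0.29), *Ccnd1* (-0.084 to 0.12) and *Ccnd3* (-0.28 to 0.081) in si*Bard1*. For the change of the effect between days the ranges were *Cdkn1a* (-0.051 to 0.28) and *Cdkn2a* (-0.14 to 0.21) in si*Wdr5*, *Cdkn2a* (-0.50 to 0.052) in si*Brca1*, *Cdkn1b* (-0.16 to 0.20), *Cdkn1c* (-0.021 to 0.58), *Cdkn2a* (-0.22 to 0.13) and *Ccnd2* (-0.18 to 0.056) in si*Bard1*. Between knockdowns at day 3 the ranges were *Ccnd1* (-0.0099 to 0.28) in si*Brca1* over si*Bard1*, *Cdkn1a* (-0.17 to 0.026), *Cdkn2d* (-0.062 to 0.22) and *Ccnd2* (-0.10 to 0.054) in si*Wdr5* over si*Bard1*. Centring moved the median of all genes for the change of the si*Wdr5* effect by -0.14, from 0.12 to -0.02. In all, 2343 of 2610 recomputed values of single genes kept their direction and side of the threshold. With 2 libraries per group, small differences were not detectable.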
